A study of Drosophila melanogaster with 6 samples.

Results

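The sarcomere and contractile apparatus genes are those that build the repeating contractile unit of muscle: the myosin and actin filaments, the troponin switch, the Z-disc and the elastic proteins that hold the filaments in register. The list named 35 Drosophila melanogaster genes, chosen by function. A gene was counted as present when a probe set of the array carried its symbol and no other, and the probe set with the highest mean over all arrays stood for it. By this rule 27 of the 35 were measured, of 11982 genes with a symbol in the whole table. The other 8 (Mhc, Act57B, Tm1, wupA, TpnC47D, TpnC25D, Unc-89 and Lasp) were not analysed here.

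Expression was measured in dissected heart/nephrocyte complexes of adult female flies, on 6 single-channel Affymetrix arrays. One diet held 0.1 M glucosamine (3 arrays) and the other 1.0 M sucrose (3 arrays), and both were given for 21 days. No strain or genotype was given in the sources used here, and no arm on unsupplemented food was analysed. The labels name 30 females without saying how flies were divided among arrays, so the p-values cover the spread between arrays alone, and that spread may be technical.

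In muscle, myosin heads on the thick filaments pull on actin in the thin filaments. Calcium binding to troponin C shifts troponin and tropomyosin on the thin filament and so opens the myosin binding sites. Insects build muscles of different types from separate genes: among the fly actins, Act88F is the actin of the indirect flight muscle, Act79B that of jump and leg muscle, Act87E is an actin of body wall muscle, and Act57B is made in body wall muscle and heart. The adult fly heart is a tube of circularly striated cardiomyocytes with a layer of longitudinal muscle fibres along its ventral side, so a dissected heart holds more than 1 kind of striated muscle.

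Intensities are the deposited values, on a linear scale, and they compare arrays for 1 probe set, not 1 gene with another. A difference is the glucosamine mean minus the sucrose mean of log2(intensity + 16), a scale on which dim genes appear to change less than they do. Differences were tested with limma over 10021 genes and unnamed probe sets after the dimmest 40% by mean were left out, with Benjamini-Hochberg adjustment and a threshold of 0.05. Of the 27 measured members 24 were tested, and Act88F, Zasp67 and fln lay below the filter. With 3 arrays a diet, exact permutation of 1 gene's values has a smallest two-sided p of 0.1, so each call depends on limma's pooled variance.

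Upper quartiles of intensity were 222 to 237 over the arrays. Of 12 heart markers 11 were measured and 9 tested, and tin was not analysed here. Their median difference was −0.07, and 8 of the 9 did not pass, svp (0.04) and tup (−0.18) among them. Hand, which encodes a bHLH factor of cardiac and pericardial cells, was the exception, at 8729 ± 1061 with glucosamine and 14680 ± 1801 with sucrose (SD, n = 3 each; −0.75, adjusted p = 0.024). Ork1, also a heart marker, had the largest difference on this list, −0.83, and came close to the threshold (adjusted p = 0.0526). Nephrocyte markers, with Amnionless, Cubn and Cubn2 the brightest, were lower after glucosamine for 6 of the 8 tested (8 of 9 listed were measured). Of everything tested, 8.64% was lower. The summed intensity of the nephrocyte markers was 6688 to 8417 with glucosamine and 23657 to 38527 with sucrose. The part of these marker differences in the sarcomere values was not tested. Of the fat body markers, led by Yp1, Yp2 and Yp3, 1 of 9 tested, fit, was higher, near the 9.92% of everything tested that was higher. None of the 7 tested neuron and glia markers, led by Gs2, moody and elav, passed. Of the trachea and epidermis markers 2 were tested, and serp was higher, against the same 9.92%, while Cpr49Ae did not pass. Resilin lay below the filter. A pair of arrays stood apart in markers of other tissues. Glucosamine replicate 3 had a summed intensity of 11970 over 8 tested gut markers, against 195 and 1263 on the other glucosamine arrays and 199 to 642 on the sucrose arrays. The brightest gut markers were the trypsin gene alphaTry, the protease gene Jon65Aiii and the maltase gene Mal-A1. The lowest intensity of any probe set was 4.322 to 4.375 over the arrays, so a listed value alone does not show expression. Sucrose replicate 1 had a summed intensity of 7202 over 7 tested ovary markers, led by osk, the chorion gene Cp16 and otu, while the glucosamine arrays had 335 to 460 and the other sucrose arrays 1095 and 423. Of 13 gut and 12 ovary markers, 11 and 10 were measured. Both were also arrays with low sarcomere signals, and results are given with and without them. Sucrose replicate 2 was as low, with a summed sarcomere intensity of 63963 against 64885 on glucosamine replicate 3 and 63478 on sucrose replicate 1.

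Nearly all sarcomere genes failed to pass the test for a difference between the diets. By limma, of 24 tested members 1 was higher after glucosamine (Mlc-c), none were lower and 23 did not pass. Over everything tested, 18.6% passed, 9.92% higher and 8.64% lower. An unadjusted p under 0.05 was found for 2 members, Mlc-c and TpnC73F, both higher, against 32.9% of everything tested. The difference was above 0 for 22 of the 24 members, against 46.4% of everything tested, and the median was 0.27 for the members and −0.03 for everything tested. The members varied together over the arrays, with a median correlation of 0.74 between pairs, so the 22 are not independent observations. Without glucosamine replicate 2 alone the members' median was 0.07. Groups that did not overlap were found for 1 member, Mlc-c, against 39.0% of everything tested (18.9% higher and 20.0% lower). In whole tissue, a difference in the number of muscle cells and one in RNA per muscle cell cannot be told apart.

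**Figure D1:**
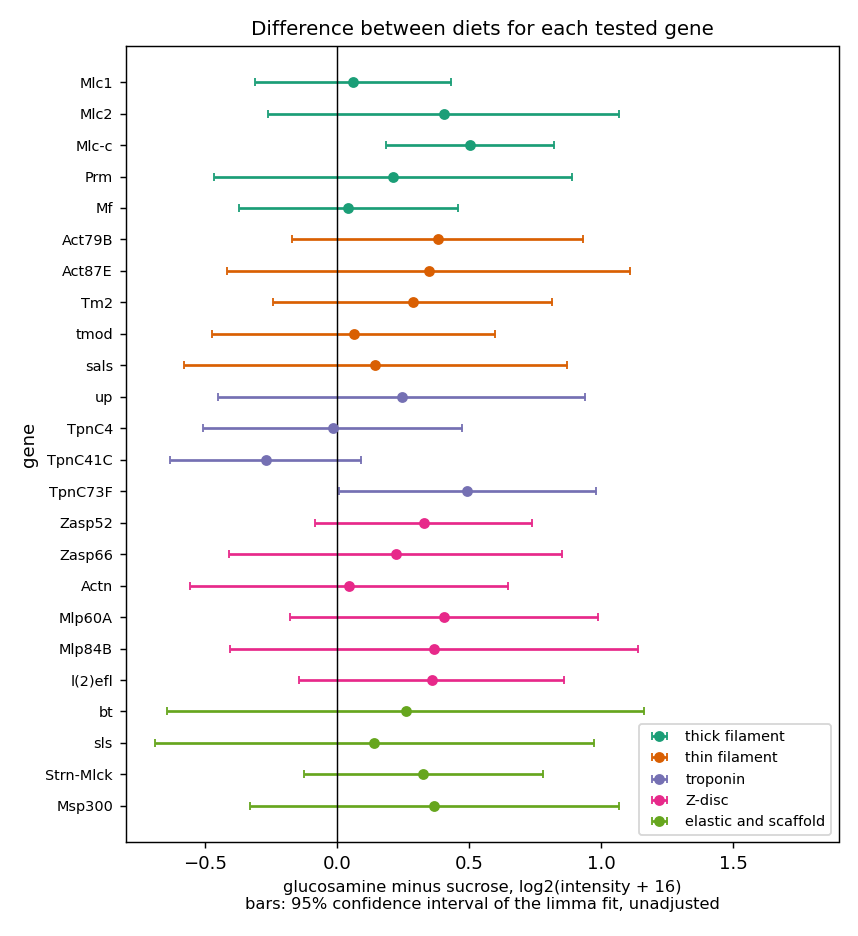
Difference between the diets for each of the 24 tested sarcomere genes, as glucosamine minus sucrose means of log2(intensity + 16); points are the estimates, bars the 95% confidence intervals of the limma fit, and colours the role of the gene. Most points lie right of 0, and only the intervals of Mlc-c and TpnC73F leave out 0.

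Among the thick filament genes the one call was Mlc-c, which encodes the essential light chain of cytoplasmic myosins rather than of muscle myosin. Its intensity was 6134, 5499 and 6349 on the glucosamine arrays and 4475, 4029 and 4145 on the sucrose arrays. Every glucosamine array was above every sucrose array. The log2 difference was 0.50 ± 0.13 (SE; adjusted p = 0.0435). Leaving out any 1 of the 6 arrays ended this call, with adjusted p of 0.0585 to 0.121 and differences of 0.46 to 0.57. Mlc-c passed in 8 of 18 alternatives. It did not pass with the replicate number as a block (adjusted p = 0.112) or when the arrays high in gut and ovary markers were dropped together (0.51, adjusted p = 0.166).

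The other 4 tested thick filament genes, the light chains of muscle myosin among them, did not pass. Mlc2, the regulatory light chain gene, had 3366, 4295 and 2145 with glucosamine and 2102, 2174 and 2915 with sucrose. The glucosamine values spanned nearly the whole range of the sucrose values, and the difference was 0.40 ± 0.28 (SE; adjusted p = 0.358). It was 0.18 without glucosamine replicate 2 and 0.68 without glucosamine replicate 3. Mlc1, the gene of the alkali light chain, had 8849, 9192 and 7476 against 8142, 7249 and 9068 in sucrose-fed flies, a difference of 0.06 ± 0.16 (SE; adjusted p = 0.824). Its 95% interval, −0.31 to 0.43, was among the narrower ones. Paramyosin (Prm), which forms the core of invertebrate thick filaments, averaged 2914 ± 871 with glucosamine and 2469 ± 583 with sucrose (SD, n = 3 each). Myofilin (Mf), an insect thick filament protein, averaged 13266 ± 2451 with glucosamine and 12754 ± 1016 with sucrose. Both had overlapping groups, with differences of 0.21 and 0.04. That of Prm was 0.065 without glucosamine replicate 1 and 0.49 without glucosamine replicate 3.

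None of the 5 tested thin filament genes passed, and their median difference was 0.29. Act87E had 1429, 2005 and 814.7 with glucosamine and 919, 1161 and 1055 with sucrose. Both the highest and the lowest of the 6 values were in the glucosamine group, and the difference was 0.35 with a 95% interval of −0.42 to 1.11 (adjusted p = 0.496). It was 0.053 without glucosamine replicate 2 and 0.69 without glucosamine replicate 3. The fly actin genes are close in sequence and the probe set of Act87E is of a kind that can share probes with other transcripts, as are those of Tm2, tmod, Mlp84B and sals, so signal from related genes cannot be told apart from theirs. The muscle tropomyosin gene Tm2 had 5100, 7126 and 4218 with glucosamine and 4031, 4152 and 5033 with sucrose (0.29 ± 0.22, SE; adjusted p = 0.41). With the same arrays left out in turn, its difference was 0.081 and 0.46. The filament end genes tmod, whose product caps the pointed end, and sals, whose product promotes lengthening there, had differences of 0.06 and 0.15 with overlapping groups.

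None of the 4 tested troponin genes passed, and their median difference was 0.11. TpnC73F, a troponin C gene of body wall muscle, came closest to the threshold after Mlc-c. It had 7975, 9696 and 6448 on the glucosamine arrays and 4996, 5274 and 6750 on the sucrose arrays. The lowest glucosamine value was below the highest sucrose value, so the groups overlapped. The difference was 0.49 ± 0.20 (SE; 95% interval 0.01 to 0.98), with an adjusted p of 0.147. Without 1 array it ran from 0.35 to 0.64, with adjusted p of 0.0996 to 0.315. A second, dim probe set of TpnC73F had 0.32 (adjusted p = 0.485). Troponin T, encoded by up, had 5998, 8301 and 3931 with glucosamine and 4279, 4576 and 6000 with sucrose, and its difference was 0.24 ± 0.29 (SE; adjusted p = 0.604).

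Several isoforms of flight and jump muscle lay near or below the filter on low values, which says nothing of their level against other isoforms. Act88F had 7.54, 7.32 and 7.22 with glucosamine and 7.44, 11.1 and 8.19 with sucrose. Flightin (fln), a thick filament protein of flight muscle, had 5.88, 5.12 and 5.35 with glucosamine and 5.21, 5.17 and 5.22 with sucrose. The filter on the mean stood at 9.75, so neither entered the test. Zasp67, a Z-disc gene, was as dim, with 4.85 to 5.86 over the 6 arrays. TpnC4, the troponin C gene of flight muscle, passed the filter with values of 13.8, 15.6 and 9.18 against 9.21, 9.61 and 22.0 in sucrose-fed flies. TpnC41C, a troponin C gene of thoracic muscle, had 13.0, 14.2 and 8.85 against 20.7, 14.0 and 18.6 in sucrose-fed flies. Their differences were −0.02 and −0.27 (adjusted p = 0.97 and 0.267), the 2 negative ones among the tested members.

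Act79B, the jump and leg muscle actin, lay above the filter, with 40.6, 64.3 and 68.0 against 55.1, 30.6 and 35.9 in sucrose-fed flies (0.38 ± 0.23, SE; adjusted p = 0.297). It was 0.26 without sucrose replicate 2 and 0.56 without glucosamine replicate 1. Of the isoforms listed for heart and body wall, Act87E and TpnC73F were measured, both named above as genes of body wall muscle. Act57B, made in body wall muscle and heart, was not analysed here. To compare the classes within an array, each gene was set against its own mean over the 6 arrays. The mean deviation of Act79B, TpnC4 and TpnC41C minus that of Act87E and TpnC73F was −0.34, −0.50 and 0.25 on the glucosamine arrays and 0.46, −0.04 and 0.16 on the sucrose arrays. The groups overlapped, and the difference between the diets of −0.39 compares with SDs of 0.40 and 0.25 within the glucosamine and sucrose groups. The mean deviation of Act87E and TpnC73F alone was 0.27, 0.65 and −0.29 with glucosamine and −0.38, −0.18 and −0.07 with sucrose. That of Act79B, TpnC4 and TpnC41C was −0.07, 0.15 and −0.03 with glucosamine and 0.08, −0.22 and 0.09 with sucrose. Most of the difference thus came from Act87E and TpnC73F. TpnC4 and TpnC41C lay near the filter, where this log2 scale understates change, so the classes were not compared on equal terms. Over the arrays left out the difference of −0.39 ran from −0.61 to −0.24, and no test was made of it.

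**Figure D2:**
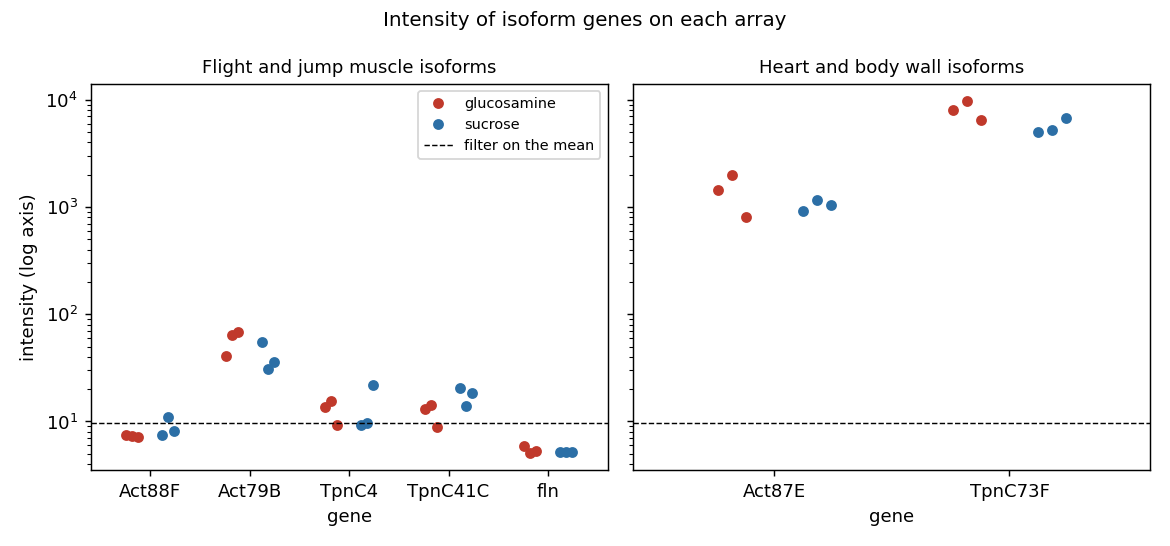
Intensity of isoform genes on each array, on a log axis, with glucosamine (left of each pair) and sucrose (right) as 3 points each; the dashed line is the filter on the mean, at 9.75. Act88F, fln, TpnC4 and TpnC41C lie between 5.12 and 22.0 on all 6 arrays, and probe sets are not comparable in level with one another.

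At the Z-disc, where thin filaments are anchored, 6 genes were tested and all 6 had a difference above 0, from 0.04 to 0.41, and none passed. Mlp60A, a muscle LIM protein gene, had 3170, 5070 and 2802 with glucosamine and 2429, 3062 and 2593 with sucrose (0.41 ± 0.25, SE; adjusted p = 0.297). It was 0.15 without glucosamine replicate 2. Zasp52, whose PDZ and LIM domain protein binds alpha-actinin, had 6075, 5796 and 4502 with glucosamine and 3912, 4204 and 4850 with sucrose (0.33 ± 0.17, SE; adjusted p = 0.237). In both genes 1 glucosamine array lay within the sucrose range. The small heat shock protein gene l(2)efl, related to alphaB-crystallin, had 6774, 7132 and 5101 with glucosamine and 4636, 4114 and 6105 with sucrose (0.36 ± 0.21, SE; adjusted p = 0.284). It was 0.24 without sucrose replicate 2. Alpha-actinin itself (Actn) had a difference of 0.04, Zasp66 0.22 and the other muscle LIM gene, Mlp84B, 0.37. That of Mlp84B was 0.15 without sucrose replicate 1 and 0.69 without glucosamine replicate 3. A dim probe set of Zasp66 had −0.031, and 2 dim probe sets of Mlp60A had −0.21 and −0.12, opposite in sign to the bright one.

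None of the 4 tested elastic and scaffold genes passed, and their median difference was 0.29. Projectin (bt), a titin-like kinase, had 1762, 2592 and 1014 with glucosamine and 982.6, 1506 and 1810 with sucrose. The lowest glucosamine value and the lowest sucrose value were close, and the difference was 0.26 ± 0.38 (SE; adjusted p = 0.68). The titin and kettin gene sls had 186.4, 265.8 and 101.7 against 111.3, 174.9 and 189.7 in sucrose-fed flies (0.14 ± 0.35, SE). Within each diet its arrays stood in the same order as for bt. The other probe sets of sls had 0.06 and 0.0028. Msp300, which encodes a nesprin that ties nuclei to the cytoskeleton, had 230.8, 222.3 and 177.2 against 94.2, 202.7 and 202.7 in sucrose-fed flies, where sucrose replicate 1 was the low value. Its difference was 0.37 ± 0.29 (SE; adjusted p = 0.423) and 0.04 without sucrose replicate 1, and another of its probe sets had −0.27.

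Strn-Mlck, a gene of stretchin and myosin light chain kinase proteins, differed among its probe sets. The brightest had 366.5, 378.2 and 273.2 with glucosamine and 227.9, 258 and 314.8 with sucrose, overlapping (0.33 ± 0.19, SE; adjusted p = 0.281). A dim probe set had 32.3, 37.9 and 56.0 with glucosamine and 8.16, 19.7 and 10.5 with sucrose, with every glucosamine array above every sucrose array. In a fit of all 11020 probe sets, in which 17.8% passed and 9.54% were higher, its difference was 1.01 ± 0.22 (SE; adjusted p = 0.026). The third had 0.01. Of 19 further probe sets of 10 members 18 were tested. Of these 13 had the sign of the main probe set and 5 the opposite, and 1 passed, the dim one of Strn-Mlck.

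The members varied together from array to array. Glucosamine replicate 3 was the lowest of the 3 glucosamine arrays for 22 of 24 members (91.7%), against 30.6% of everything tested, with Act79B and Mlc-c as the exceptions. Glucosamine replicate 2 was the highest of them for 17 members (70.8%, against 34.8%). Among sucrose arrays, replicate 1 was the lowest for 16 members (66.7%, against 35%) and replicate 3 the highest for 17 (70.8%, against 33.4%). Without Mlc-c, the members' median deviation from their own means was 0.21, 0.37 and −0.30 on the glucosamine arrays and −0.30, −0.19 and 0.10 on the sucrose arrays.

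**Figure D3:**
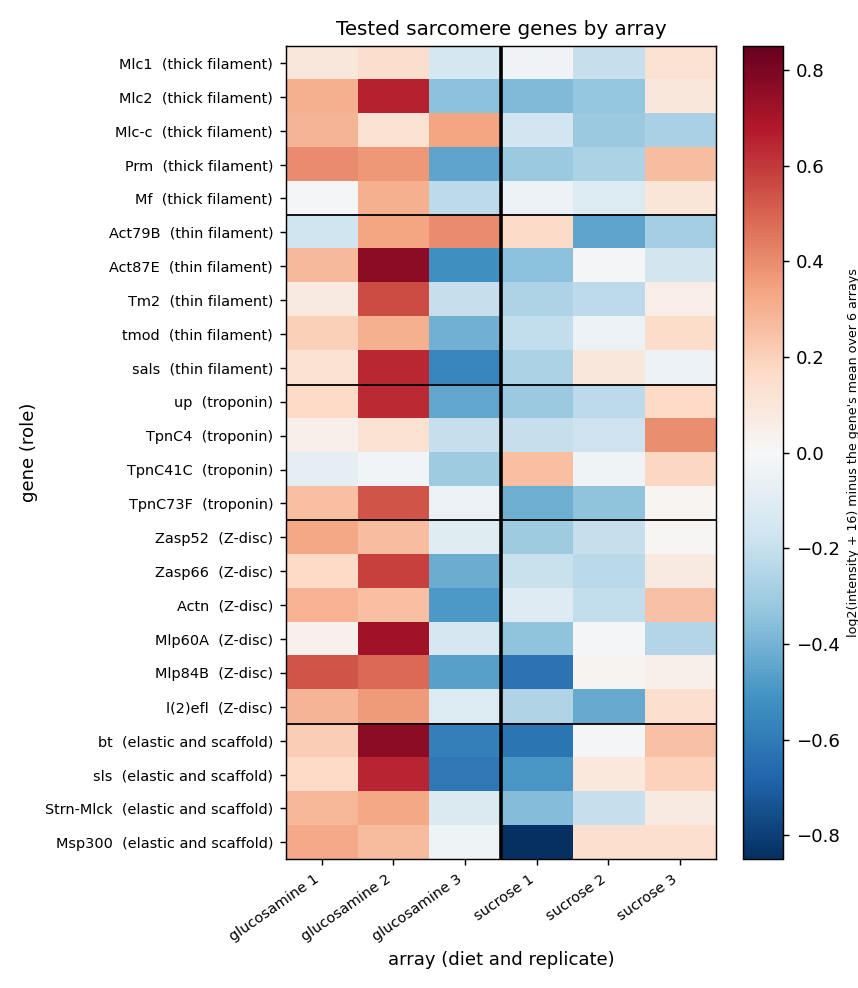
Deviation of each tested sarcomere gene from its own mean over the 6 arrays, log2 scale, with glucosamine arrays left and sucrose arrays right and genes grouped by role. Of the 24 rows, 15 are highest on glucosamine replicate 2 and 20 are lowest on glucosamine replicate 3 or sucrose replicate 1. Rows that depart from this include Mlc-c, Act79B, TpnC4 and TpnC41C, and some rows are highest on glucosamine replicate 1.

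The median Pearson correlation over all pairs of tested members was 0.74 across the 6 arrays, and 0.80 after the mean of each diet was taken off, against 0 and 0.01 over all pairs of everything tested. These correlations are descriptive, since the members share their arrays and their normalization. Correlation with the mean of the other members was highest for Mlc2 and up, at 0.99 each, Zasp66 (0.96), bt (0.96) and Tm2 (0.95). It was lowest for Act79B (−0.06), TpnC41C (−0.0026) and Mlc-c (0.20).

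The same arrays differed in markers of other cell types. The 8 tested hemocyte markers, led by NimC1, Sr-CI and crq, had median deviations of 0.23, 0.40 and −0.45 on the glucosamine arrays and −0.16, −0.29 and 0.25 on the sucrose arrays, and glucosamine replicate 3 was the lowest glucosamine array for 7 of them. All 8 listed hemocyte markers were measured, and their summed intensity was 8116 to 14349 with glucosamine and 9005 to 13198 with sucrose. The gut markers had medians of −1.11, 0.50 and 3.53 within the glucosamine group, and there glucosamine replicate 3 was the highest. The ovary markers stood at 1.34 on sucrose replicate 1 and at −0.68 to −0.25 on the other arrays. The 9 tested heart markers had medians of 0.01, 0.07 and −0.40 with glucosamine and −0.05, 0.07 and 0.40 with sucrose. The part of gut, ovary or hemocyte RNA in the sarcomere values was not tested.

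**Figure D4:**
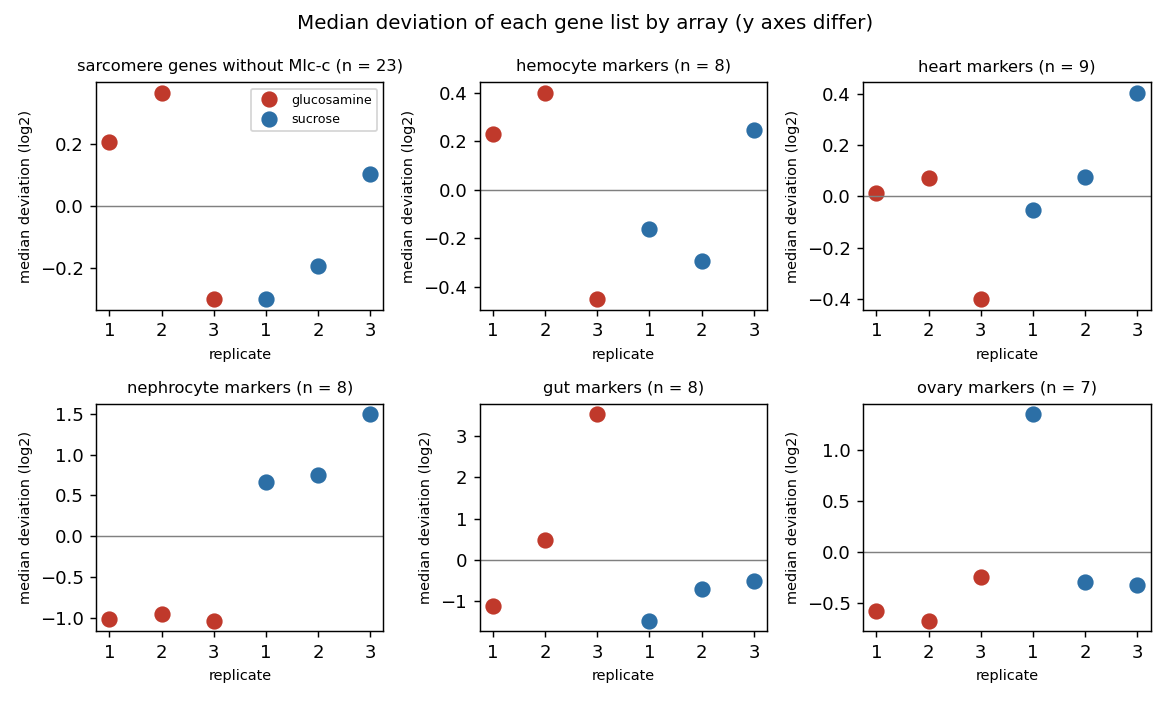
Median deviation of the sarcomere genes without Mlc-c and of marker lists on each array, log2 scale, glucosamine replicates left and sucrose replicates right; the y axes differ between panels. The low sarcomere medians on glucosamine replicate 3 and sucrose replicate 1, both −0.30, fall on the arrays with the highest gut median, 3.53, and the highest ovary median, 1.34. The sarcomere median was also low on sucrose replicate 2 (−0.19), where the gut median was −0.69 and the ovary median −0.30. Glucosamine replicate 2 had the highest sarcomere median, 0.37, with a gut median of 0.50.

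The median difference of the members depended on which arrays entered. It was 0.27 with all arrays, 0.07 without glucosamine replicate 2, 0.15 without sucrose replicate 1 and 0.47 without glucosamine replicate 3. It was 0.39 when glucosamine replicate 3 and sucrose replicate 1 were dropped together. With any of these arrays left out no member passed. The 5′ minus 3′ signal of the control transcripts, a measure of RNA and labelling quality, was lower with glucosamine for all 4 on average. The groups did not overlap for eIF-4a (−2.98 with glucosamine and −2.24 with sucrose), GAPDH (−1.50 and −1.36) or 18S rRNA (−0.76 and −0.64), and they overlapped for actin (−1.87 and −1.60). The part of this in the sarcomere differences was not tested.

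**Figure D5:**
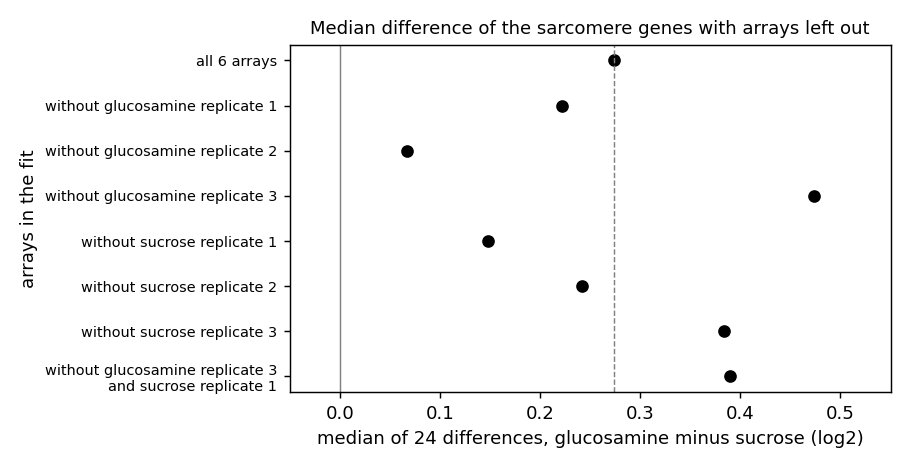
Median over the 24 tested sarcomere genes of the difference between the diets, glucosamine minus sucrose on the log2 scale, with all 6 arrays and with arrays left out; the dashed line marks the value with all arrays. The median stays above 0 and runs from 0.07 to 0.47 when 1 array is left out.

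Genes that assemble, anchor and regulate the contractile apparatus were followed in lists of their own. In the list of sarcomere assembly and turnover 11 of 18 genes were measured and tested. Of these 4 were higher after glucosamine, none were lower and 7 did not pass, where 9.92% of everything tested was higher. Their median difference was 0.47, against −0.03 over everything tested. The filamin gene cher, an actin cross-linker of the Z-disc and cell cortex, had 476.4, 334.3 and 367.9 with glucosamine and 175.1, 147.1 and 161.7 with sucrose (1.19 ± 0.17, SE; adjusted p = 0.00711). The myosin chaperone gene unc-45 had 271.1, 230.6 and 235.3 with glucosamine and 145.3, 122.3 and 127.9 with sucrose (0.82 ± 0.14, SE; adjusted p = 0.0117). In both genes the lowest glucosamine array was well above the highest sucrose array, and glucosamine replicate 3 was not the lowest glucosamine array.

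The co-chaperone gene starvin (stv), which acts in the clearance of damaged filamin in fly muscle, had 3564, 2695 and 3454 with glucosamine and 1663, 587.4 and 1194 with sucrose (1.59 ± 0.37, SE; adjusted p = 0.0295). The capping protein gene cpa, whose product caps the barbed ends of actin filaments, had 1324, 1307 and 1392 against 769.1, 690.2 and 809 in sucrose-fed flies (0.82 ± 0.13, SE; adjusted p = 0.00976). The partner subunit gene cpb had 0.51 (adjusted p = 0.102). With any 1 of the 6 arrays left out cher, unc-45 and cpa still passed, while stv passed in 2 of those 6 fits, without sucrose replicate 1 and without sucrose replicate 2. Without the arrays high in gut and ovary markers, a fit of 4 arrays that called 331 of everything tested against 1860, none of the 4 passed, with differences of 1.29 for cher, 0.92 for unc-45, 0.80 for cpa and 1.87 for stv and adjusted p of 0.0628 to 0.0841.

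Of 17 listed genes of cytoplasmic actomyosin 9 were measured and tested, with zip, sqh, Act5C and Act42A among those not analysed here. Of the 9 tested 3 were higher, against 9.92% of everything tested, none were lower and 6 did not pass. Their median difference was 0.33. Flapwing (flw), a catalytic subunit of the phosphatase that acts on myosin light chain, had 1368, 892.9 and 1004 with glucosamine and 448.1, 415.1 and 428.1 with sucrose (1.28 ± 0.19, SE; adjusted p = 0.0071). The actin-monomer binding genes chic, the fly profilin, and cib, a beta-thymosin protein, had differences of 0.63 and 0.61 (adjusted p = 0.0417 and 0.0434), close to that of Mlc-c. Their groups did not overlap. When arrays were left out singly flw passed in all 6 fits, chic in 1 (that without sucrose replicate 1) and cib in none, so the count of 3 was 1 or 2 with an array left out, and 0 without the arrays high in gut and ovary markers. In that last fit the differences were 1.36 for flw, 0.81 for chic and 0.67 for cib. With the mean of all probe sets of a gene, cib had 1.09 (adjusted p = 0.00646).

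Of 16 listed muscle attachment genes 15 were measured and tested. None were higher, 2 were lower and 13 did not pass, where 8.64% of everything tested was lower. Their median difference was 0.12, and a count of 2 is near that share. The lower ones were the laminin gene wb, with 258.1, 390.6 and 336.4 against 750.3, 869.5 and 1787 in sucrose-fed flies (−1.65 ± 0.34, SE; adjusted p = 0.0208), and the integrin alpha subunit gene mew (−1.06 ± 0.22, SE; adjusted p = 0.0222). Of these fits wb passed in 4 and mew in 2. The count of 2 was 0 without glucosamine replicate 1 or without glucosamine replicate 3, and 1 without sucrose replicate 2 or without sucrose replicate 3. It was also 0 without both arrays high in gut and ovary markers, with differences of −1.92 for wb and −1.01 for mew. With the mean of all probe sets of a gene, wb had −0.77 (adjusted p = 0.0419). Of 16 listed genes of excitation-contraction coupling 12 were measured and 11 tested, with a median difference of −0.02. Of the 11 tested 1 was lower, which is near the 8.64% of everything tested. It was the potassium channel gene sei, with 36.5, 39.8 and 41.7 against 189.8, 131.7 and 104 in sucrose-fed flies (−1.48 ± 0.21, SE; adjusted p = 0.00719). With log2(intensity + 64) its difference was −0.97 (adjusted p = 0.0127). When arrays were left out singly sei passed in all 6 fits (adjusted p of 0.0136 to 0.0365). Without both arrays high in gut and ovary markers it had −1.30 and was just under the threshold (adjusted p = 0.049). The other 10 did not pass, among them the calcium pump gene SERCA (−0.01) and the calcium release channel gene RyR (0.16). Also among them were Ork1 (−0.83, adjusted p = 0.0526) and Itpr (−0.72, adjusted p = 0.0742), each with every glucosamine array below every sucrose array. With sei, 3 of the 11 had groups that did not overlap, against 39.0% of everything tested. The count of 1 lower gene was 2 without sucrose replicate 1 or without sucrose replicate 3.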

How the data were processed

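The deposited table holds linear intensities, 1 for each probe set on each array. The methods of probe summary, background correction and normalization are not given in the sources used here, so no step was undone and the values entered as deposited. Biotinylated cRNA was made by the Affymetrix protocol, per the labels' protocols. Of 18952 probe sets, 183 controls and 402 with several gene symbols were left out, and 4720 had no symbol. Symbols came from GEO's platform annotation, and 13544 of 13647 probe sets with 1 symbol matched RefSeq by Entrez ID.

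Log2(intensity + 16) was fitted with lmFit and eBayes (limma 3.58.1, R 4.3.3), two-sided, with diet as the only term, and the fit was tested on simulated data. Groups and replicate numbers came from the titles. All members were named; of the other muscle lists, up to 4 genes past the threshold by smallest p, or else 2, and of each marker list the brightest 3. By that rule SERCA, RyR, Ork1, Itpr, cpb and fit fall outside. They were named after their values were seen. Members, lists and rules were chosen with earlier results of these data known. Alternatives covered normalization, filter, pseudocount, probe set choice, variance prior, array weights, a replicate block and arrays left out. The number of arrays limits precision. Figures used Python 3.11.15, pandas 2.3.3 and matplotlib 3.10.9.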

Additional observations from a re-analysis of the deposited data

How the results depend on the processing

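The count of 1 higher member became 0 under median centring, log2(intensity + 1), the replicate block, both arrays high in gut or ovary markers left out, and in each fit without 1 array (0 to 0); no member was lower in any setting. Everything tested gave 1860 calls, 999 with the replicate block, 331 with both arrays out and 786 to 1467 without 1 array. For assembly genes the count of 4 was 0 with both arrays out and 3 to 4 without 1. For cytoplasmic actomyosin the count of 3 was 1 without a filter, with log2(intensity + 1) and with the block, 0 with both arrays out, and 1 to 2 without 1. For attachment the count of 2 was 0 without a filter, 1 with the block, 0 with both arrays out and 0 to 2 without 1. For excitation-contraction coupling the count of 1 was 2 under cyclic loess, log2(intensity + 1) and array weights, 1 with both arrays out, and 1 to 2 without 1 array. These list counts were added after seeing the data. The sign turned, never past the threshold, for tmod with the mean of its probe sets (−0.013) and for TpnC4 with log2(intensity + 1) (0.0020) and array weights (0.022). It turned in other probe sets of Mlp60A (−0.21, −0.12), Msp300 (−0.27), tmod (−0.090) and Zasp66 (−0.031). Without 1 array it also turned for Actn (−0.092 to 0.30), bt (−0.054 to 0.62), Mf (−0.10 to 0.17), Mlc1 (−0.020 to 0.15), sals (−0.14 to 0.46), sls (−0.15 to 0.48), tmod (−0.071 to 0.29), TpnC4 (−0.12 to 0.18), up (−0.012 to 0.53) and Zasp66 (−0.012 to 0.49). The causes were not tested. Same-numbered arrays did not deviate together (correlations 0.02, −0.12 and −0.05). The labels do not say whether they were handled as pairs, and these correlations cannot settle it. The replicate block left Mlc-c at 0.50 with adjusted p = 0.112. Genes near the filter have little signal over background.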

Other observations

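Lasp, which encodes an actin-binding LIM and SH3 protein, shares its probe set with CG43954, so it entered no comparison. That probe set had 105.5, 83.3 and 118.7 with glucosamine and 76.8, 32.0 and 52.7 with sucrose, and it was not tested. Every glucosamine array was above every sucrose array, as was found for 18.9% of everything tested.

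When each member was expressed relative to the median of the members other than Mlc-c on the same array, a description added after the data were seen, the spread within the glucosamine group became smaller for 19 of 24 members and within the sucrose group for 17. The smaller spread is partly built in, since the median was taken from the same members, and it was not counted over everything tested. On this scale TpnC73F had 0.05, 0.17 and 0.25 with glucosamine and −0.12, −0.15 and −0.09 with sucrose. Its groups did not overlap, and the difference was 0.27. The groups of tmod and TpnC41C did not overlap either and lay lower with glucosamine, by −0.16 and −0.49. So 3 of 24 members did not overlap on this scale, against 24.6% of everything tested (7.3% higher and 17.2% lower), and the count is no result about the members. The other 21 overlapped, among them Mlc-c, whose difference on this scale was 0.28 with SDs of 0.44 and 0.26 in the glucosamine and sucrose groups.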
